A study of Canis lupus familiaris with 4 samples.

Results

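The acute inflammatory genes IL1A, IL1B, IL1RN, IL6, TNF and PTGS2 were read on the array by the probes whose accession is the dog RefSeq mRNA of one of these 6 genes. There were 8 such probes among 43603 probes that are not controls: 1 each for IL1A, IL1B, IL1RN and PTGS2, and 2 each for IL6 and TNF. Every member had a probe, and each probe was spotted once per array. For IL6 and TNF, probe 1 is the one with the higher mean signal; the numbers serve as names.

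The series set canine mammary tumours of grade 3, labelled the most malignant, against tumours of grade 1, labelled less malignant. Total RNA of both grades was hybridised together on each of 4 two-colour Agilent arrays on 1 slide, with grade 3 in Cy5 and grade 1 in Cy3 on 2 arrays and the dyes swapped on the other 2. The labels number the arrays as biological replicates 1 and 2 in each dye orientation but do not say which share an RNA extract, so each p-value speaks for the scatter among the 4 hybridisations alone, and that scatter may be technical. Titles and sources name tumours, whereas the growth and treatment protocols tell of cancer cells layered with sorted monocytes, kept together for at least 72 h and sorted apart by a dye carried by the cancer cells, so the material behind each grade is not settled. Of the 9 mammary epithelial markers listed, only the milk genes CSN2 and LALBA had a named probe, and both were well above background in both grades on all 4 arrays. The summed level of these 2 genes was 358021 to 468320 intensity units in grade 3 and 37670 to 94321 in grade 1. The keratins and EPCAM were not analysed here.

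Interleukin 1, interleukin 6 and tumour necrosis factor are the early cytokines of acute inflammation. IL1A and IL1B are agonist ligands of the same receptor, and IL1RN is its secreted antagonist, which binds that receptor without triggering it. IL6 signals through a receptor complex that activates STAT3 and drives the acute phase response, TNF acts through its own receptors on NF-kB, and PTGS2, the inducible cyclooxygenase, makes the precursor of the prostaglandins downstream of these cytokines. PTGS2 protein has long been studied in canine mammary carcinomas. In the gene order of the dog reference table, IL1A and IL1B are adjacent protein-coding genes, and IL1RN lies in the same cluster with 5 protein-coding genes between it and IL1B.

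IL1B, IL6, PTGS2, IL1A and IL1RN were lower in grade 3, and TNF was not called. The genes are given in order of size by their brightest probe, but IL6 probe 2 changed less than PTGS2. A probe was tested where all 4 arrays had it well above background in grade 3, in grade 1 or in both. Of the 8 probes 7 passed. Both IL6 probes, PTGS2, IL1A and IL1RN were lower at an adjusted p under 0.05. IL1B passed through grade 1 alone, which favours a call of lower, so its call is not counted with these. Among all 35411 tested probes 61.6% were called, 30.5% lower in grade 3 and 31.1% higher, and among the 925 named genes, taken by their brightest probe, 46.1% were lower. A call of lower was common, so the members' calls are read with their sizes. Both IL6 probes, PTGS2, IL1A and IL1RN were below 0 on all 4 arrays, as were 28.3% of tested probes. IL6 probe 1 and PTGS2 were called at least 2-fold lower, against 1.75% of all tested probes. Counted from the lowest of the 35411 fitted log2 fold changes, IL6 probe 1 ranked 126, PTGS2 ranked 282 and IL6 probe 2 ranked 699. IL1A ranked 1118 and IL1RN 4905, inside the lowest 3.16% and 13.9%; IL1B has no exact rank, since its fold is a bound. Fewer cells of a type and less RNA per cell cannot be told apart in bulk RNA such as this.

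**Figure D1:**
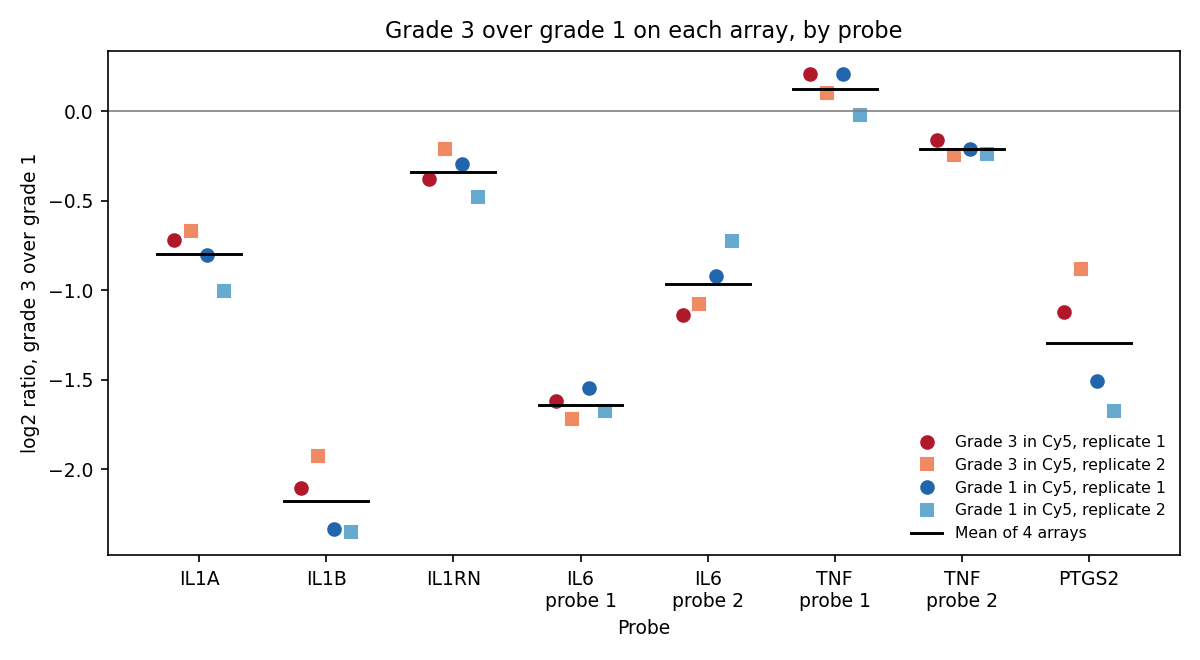
Log2 ratio of grade 3 over grade 1 (vertical axis) for each of the 8 probes, with 1 point per array coloured by dye orientation and a line at the mean of 4 arrays. All 4 points lie below 0 for every probe except TNF probe 1, which has 3 points above 0 and 1 below; the PTGS2 points split by dye orientation.

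The agonist IL1B showed the widest gap. Its net signal, the median spot intensity minus local background before any normalization, was 18, 18, 19.5 and 25 units in grade 3, against 175.5, 176, 255 and 247.5 units in grade 1; the order of arrays here and below is replicates 1 and 2 with grade 3 in Cy5, then replicates 1 and 2 with grade 1 in Cy5. Every grade 1 value was higher than every grade 3 value. How many of all probes had raw signals so separated was not counted, here or for the members below. The scanner software marked IL1B as well above background on 0 of 4 arrays in grade 3 and on 4 of 4 in grade 1. Negative control spots read in the channel of grade 3 had medians of 3, 2.5, 9 and 15 units and 95th percentiles of 11.9, 10.4, 17 and 29.1 units on the same arrays, so the grade 3 signal of IL1B lay above that percentile on 3 of 4 arrays. After loess normalization the log2 ratios were -2.10, -1.93, -2.33 and -2.35. Since IL1B passed the filter on dim probes through grade 1 alone, these ratios have no exact size. On the loess scale the estimated bound was 4.32-fold lower in grade 3. It set grade 1 against the dimmest probe still well above background, or the IL1B reading itself where that was higher. That dimmest level averaged 6.05 in log2 over the grade 3 channels. It is no strict floor, as TNF probe 2 reached 6.18 in grade 3 without being well above background. The limma call of IL1B as lower rests on the fitted ratios and does not test the bound. The bound was estimated in the main setting alone. Fitted log2 values were -1.51 with scaling to spike-in controls and -1.19 with local backgrounds as measured, so the bound does not hold there. These values were -2.23 with median centring and -3.76 with an offset of 0. The measured log2 level of IL1B averaged 6.02 ± 0.10 in grade 3 and 8.20 ± 0.12 in grade 1 (SD, n = 4).

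IL1A, the other agonist, was well above background in both grades on every array. Net signals were 101.5, 79.5, 94.5 and 97 units in grade 3, against 118.5, 116, 169 and 183 units in grade 1. The grades did not overlap, and the narrowest gap was on replicate 1 with grade 3 in Cy5. Log2 ratios were -0.72, -0.67, -0.80 and -1.01. Grade 3 was 1.74-fold lower, or -0.80 ± 0.05 in log2 (SE, 4 arrays; adjusted p by limma 8.66e-07). That fold is under the bound of 4.32 for IL1B.

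IL1RN, the antagonist, had the smallest called change of the members. Its net signals were 223.5, 219, 201 and 204 units in grade 3 and 164, 176, 217 and 231 units in grade 1, so before normalization the grade in Cy5 was the brighter one on every array. Loess normalization gave log2 ratios of -0.38, -0.21, -0.30 and -0.48, all below 0. Grade 3 was 1.27-fold lower, or -0.34 ± 0.05 in log2 (SE, 4 arrays; adjusted p by limma 0.00037). The ratio of the antagonist was nearer to 0 than that of IL1A on all 4 arrays, and the difference of IL1A minus IL1RN was -0.46 ± 0.08 (SD, n = 4). Against IL1B only the estimated bound of 4.32-fold can be set beside the 1.27-fold of IL1RN. A difference within an array is the same under any scaling that moves all probes alike.

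**Figure D2:**
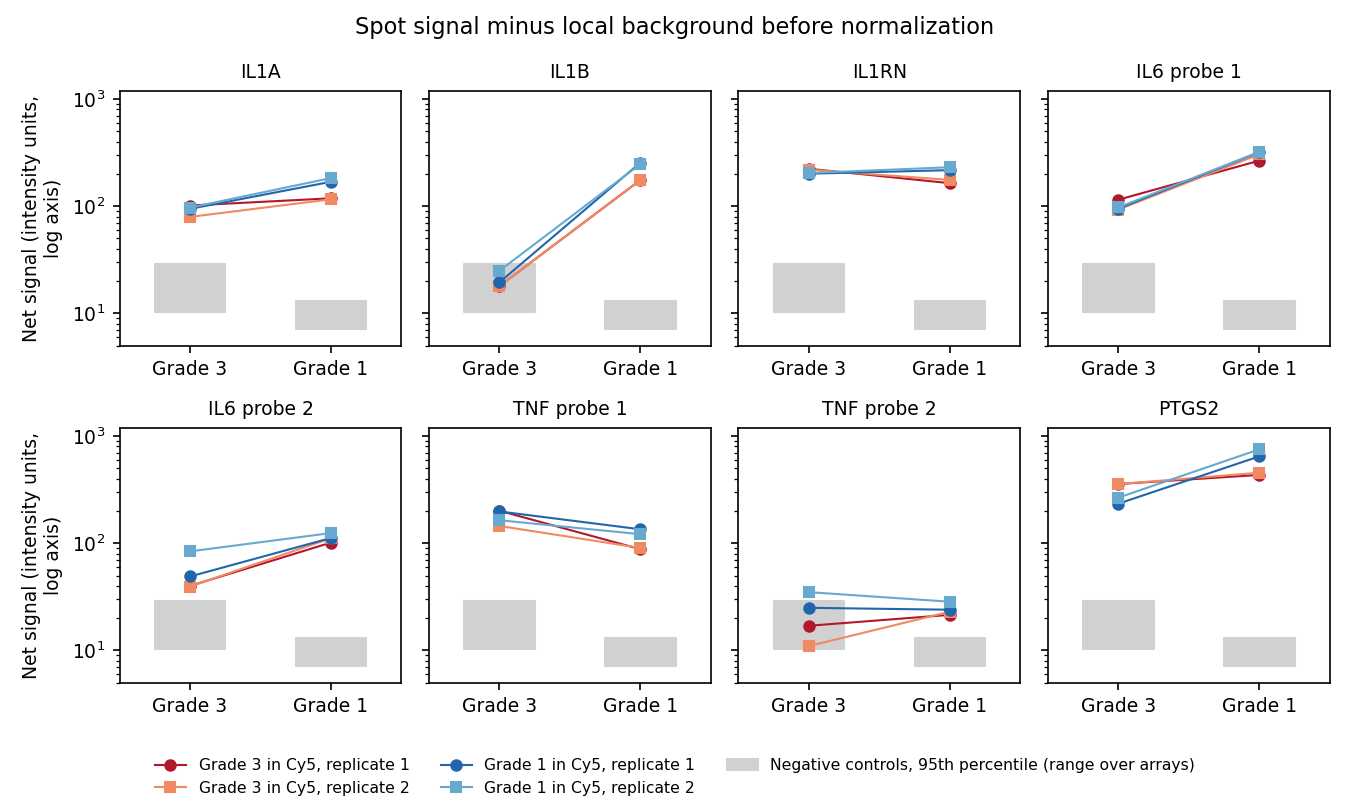
Net signal in intensity units on a log axis for each probe, grade 3 at the left and grade 1 at the right of each panel, with a line joining the grades of 1 array; grey boxes span the 95th percentiles of negative control spots over the 4 arrays. IL1B in grade 3 (18 to 25 units) and TNF probe 2 in grade 3 (11 to 35 units) lie at the level of the box, with 1 TNF probe 2 value above it, and IL1B in grade 1 (175.5 to 255 units) is far above it.

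Both IL6 probes were lower in grade 3. Probe 1 had net signals of 115, 93, 95 and 97.5 units in grade 3, against 266, 304.5, 319 and 321 units in grade 1. The grades were well apart on all arrays, and both were above background throughout. Its log2 ratios of -1.62, -1.72, -1.55 and -1.67 were the tightest among the called members (SD 0.07), and grade 3 was 3.11-fold lower, or -1.64 ± 0.05 in log2 (SE, 4 arrays; adjusted p by limma 6.18e-09). Probe 2 was dimmer, with 40, 39.5, 49 and 84 units in grade 3, against 101.5, 111.5, 112 and 124.5 units in grade 1. Again the grades did not overlap, and the highest grade 3 signal was on replicate 2 with grade 1 in Cy5. Its log2 ratios were -1.14, -1.08, -0.92 and -0.72, and grade 3 was 1.95-fold lower, or -0.96 ± 0.05 in log2 (SE, 4 arrays; adjusted p by limma 2.49e-07). The log2 ratio of probe 2 was nearer to 0 than that of probe 1 on each array, by 0.67 ± 0.20 (SD, n = 4). The pair read the same RNA and are not replicates.

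No change was called for TNF. Probe 1 had net signals of 201, 145, 198 and 164 units in grade 3, against 88, 90.5, 135 and 121.5 units in grade 1. Grade 3 was the brighter grade on all 4 arrays before normalization. So was the grade 3 channel as a whole. Its median signal was 402, 334.5, 324 and 354.5 units, against 215, 222.5, 289 and 292 units in grade 1. After normalization the log2 ratios were 0.21, 0.10, 0.21 and -0.02, and the fitted change of 0.12 ± 0.05 in log2 was not called (SE, 4 arrays; adjusted p by limma 0.0754). Its 95% interval, with no adjustment for the number of probes, ran from 0.000583 to 0.25. The call changed with the setting: TNF probe 1 was called higher with median centring in place of loess (0.14, limma adjusted p = 0.0462), with scaling to spike-in controls (0.79, limma adjusted p = 1.93e-14) and when replicate 2 of the orientation with grade 1 in Cy5 was left out (0.18, limma adjusted p = 0.0484).

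TNF probe 2 was near the background and was not tested. Net signals were 17, 11, 25 and 35 units in grade 3 and 21.5, 23, 24 and 28.5 units in grade 1, with the grades overlapping. Grade 3 was well above background on 1 array and grade 1 on 3. The log2 ratios were -0.16, -0.24, -0.21 and -0.24, below those of probe 1 on each array (probe 2 minus probe 1, -0.34 ± 0.09, SD, n = 4). Without the filter on dim probes it would be called lower (-0.21 ± 0.05 in log2, SE, 4 arrays; adjusted p by limma 0.00378), so the 2 TNF probes had opposite signs.

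PTGS2 was lower in grade 3, with a difference between the dye orientations. Net signals were 357, 356, 234 and 266.5 units in grade 3, against 434, 455, 646 and 751.5 units in grade 1. The grades did not overlap, and the gap was wider on the arrays with grade 1 in Cy5. Log2 ratios were -1.12, -0.88, -1.50 and -1.68. Grade 3 was 2.45-fold lower, or -1.30 ± 0.06 in log2 (SE, 4 arrays; adjusted p by limma 6.93e-08). The mean ratio was -1.0 with grade 3 in Cy5 and -1.59 with grade 1 in Cy5, and the dye term of 0.30 was the widest among the members. Within each dye orientation both arrays were below 0.

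Setting the members' log2 ratios side by side within each array, some steps in their order held on all arrays. IL1B, with an estimated bound of 4.32-fold, stood beyond the 3.11-fold of IL6 probe 1. IL1A lay below IL1RN, and IL1RN below TNF probe 1 (difference -0.47 ± 0.11 SD, n = 4), on all 4. Between IL6 probe 1 and PTGS2 the difference of -0.34 ± 0.40 changed sign on 1 array, between PTGS2 and IL6 probe 2 that of -0.33 ± 0.53 changed sign on 2, and between IL6 probe 2 and IL1A that of -0.16 ± 0.33 changed sign on 1, so these neighbours did not differ beyond their spread.

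The sizes depended on how background was removed, since most of these probes are dim. The normexp correction used here adds an offset of 50 units, which pulls the fold changes of dim probes toward 1. With an offset of 0 the log2 fold changes were -3.76 for IL1B, -2.12 for IL6 probe 1, -1.59 for IL6 probe 2, -1.46 for PTGS2 and -1.14 for IL1A. The deposited processed signals, which carry the scanner software's own correction, gave -5.42 for IL1B, -2.32 for IL6 probe 1, -2.14 for IL6 probe 2, -1.55 for PTGS2, -1.32 for IL1A and -0.45 for IL1RN. In those processed signals IL1B read 3.82, 6.10, 7.93 and 8.39 units in grade 3, against 231.9, 254.4, 298.4 and 293.8 units in grade 1, so its ratio there rests on values close to 0.

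With local backgrounds left as measured most of the members' calls were lost. In that setting PTGS2 stayed called (log2 fold change -0.93, limma adjusted p = 0.038), while IL1B (-1.19, adjusted p = 0.0937), IL6 probe 1 (-0.95, 0.0746), IL6 probe 2 (-0.54, 0.138), IL1A (-0.46, 0.099) and IL1RN (-0.23, 0.125) were not, against 12.5% of all tested probes called lower. The ratios shrank on 2 arrays. On replicate 2 with grade 3 in Cy5 they were -0.09 for IL1B, -0.15 for IL6 probe 1 and -0.16 for PTGS2; one local background in its Cy5 channel read 309565 units, where the channel's median was 41, and the noise SD fitted by normexp was 3313 units, against 0.18 with marked backgrounds replaced. On replicate 1 with grade 1 in Cy5 they were -0.56 for IL1B, -0.53 for IL6 probe 1 and -0.80 for PTGS2, with backgrounds of up to 21363 units and noise SDs of 181 units in Cy5 and 358 in Cy3. Each array was then left out in turn in this setting, a choice made after seeing the data. Without replicate 2 with grade 3 in Cy5 all 6 probes were called lower: IL1B (-1.69, limma adjusted p = 0.0151), IL6 probe 1 (-1.31, 0.0106), IL6 probe 2 (-0.86, 0.00542), PTGS2 (-1.18, 0.00885), IL1A (-0.63, 0.0259) and IL1RN (-0.32, 0.0341). Of all 35411 tested probes 7589 were called lower in that fit. Without replicate 1 with grade 1 in Cy5, IL1B (-1.56, limma adjusted p = 0.0416), IL6 probe 1 (-1.19, 0.0419) and PTGS2 (-1.13, 0.0222) were called and the other 3 probes were not. In that fit 2071 of all tested probes were called lower. Without either of the remaining arrays none of the 6 was called, with adjusted p values by limma of 0.0552 and above, and PTGS2 lost its call too. All tested probes called lower then numbered 5187 without replicate 1 with grade 3 in Cy5. They numbered 1237 without replicate 2 with grade 1 in Cy5.

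Direction also depended on what the arrays were scaled to. The 10 spike-in control probes had a mean log2 ratio of -0.67, and on their scale the median over all tested probes was 0.67, against 0.0045 with loess. On that scale IL1B (-1.51), IL6 probe 1 (-0.97), PTGS2 (-0.63) and IL6 probe 2 (-0.30) stayed called lower, as did 2.59% of all tested probes. IL1A was not called (-0.13, limma adjusted p = 0.198), and IL1RN turned to higher (0.32, limma adjusted p = 0.00154). All other values in the text are relative to the bulk of probes on each array.

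**Figure D3:**
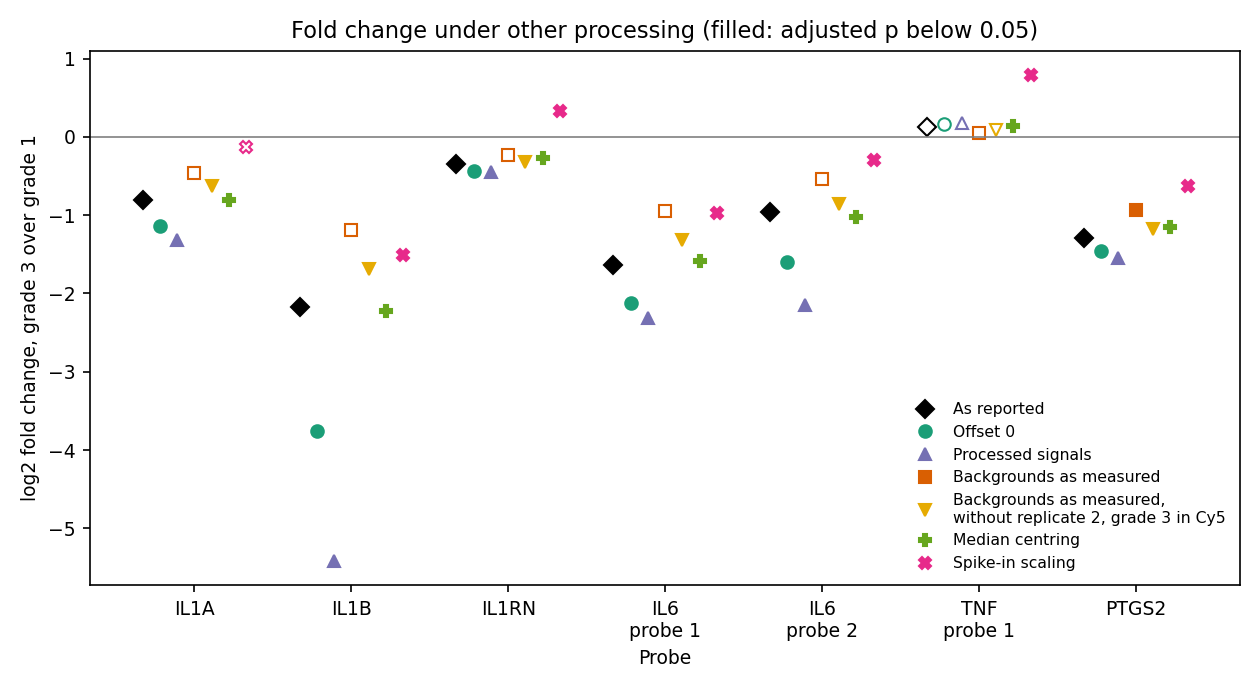
Log2 fold change of grade 3 over grade 1 (vertical axis) for the 7 tested probes under 7 settings, filled where the adjusted p was below 0.05. IL1B has the lowest fitted value in every setting shown, from -1.19 to -5.42, and TNF probe 1 is the highest, from 0.05 to 0.79; IL1RN is above 0 with spike-in scaling.

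Genes of the same pathways were taken from 6 lists holding 124 genes besides the members. Named probes were tested for 42 of them: 30 were lower in grade 3, 5 higher and 7 not called, with a median log2 fold change of -0.49, against 46.1% lower, 24.1% higher and a median of -0.09 among all 925 named genes. With backgrounds as measured 20 were lower and 1 higher, and with spike-in scaling 14 were lower and 20 higher.

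In the IL1 family all 3 measured genes were lower, against 46.1% of all named genes. IL18BP, which neutralises interleukin 18, was 3.35-fold lower, the alarmin IL33 1.90-fold and IL18 itself 1.60-fold. The IL1 receptors and the inflammasome genes were not analysed here. In the IL6 family SOCS3, a feedback inhibitor induced by STAT3, fell by 0.46 on the log2 scale, a call lost with backgrounds as measured, and LIF (0.06 ± 0.05, limma adjusted p = 0.386) and its receptor LIFR (0.03 ± 0.05, limma adjusted p = 0.655) were not called.

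In the TNF superfamily all 4 measured relatives of TNF were lower in grade 3, against 46.1% of all named genes. LTB, encoding lymphotoxin beta, was 2.64-fold lower, TNFSF10, the death ligand TRAIL, 2.28-fold and the receptor CD40 2.02-fold. The values of LTB and CD40 are those of their brightest probes. In log2 the other probe had -0.95 for LTB and -0.63 for CD40. The mean over tested probes was -1.18 for LTB and -0.83 for CD40. CD40LG, the ligand of CD40 on T cells, was 1.14-fold lower, and its call was lost with median centring, with backgrounds as measured, without a dye term and without replicate 2 of either dye orientation. Log2 ratios of LTB on the 4 arrays were -1.51, -1.53, -1.28 and -1.28, against 0.21, 0.10, 0.21 and -0.02 for TNF probe 1.

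Prostaglandin genes went in both directions. Of 8 measured, 3 were lower, 2 higher and 3 not called, with a median of -0.0084. Among all 925 named genes 46.1% were lower and 24.1% higher, with a median of -0.09. The split is therefore not read as a trait of this list. PTGS1, the constitutive cyclooxygenase, fell by 0.50 and the prostaglandin E receptor gene PTGER4 by 0.52 on the log2 scale; the PTGS1 call was lost with backgrounds as measured. PTGES, the inducible prostaglandin E synthase that acts after PTGS2, had array ratios of -0.09, 0.12, 0.07 and -0.10 (adjusted p by limma 0.999949). The prostaglandin F receptor gene PTGFR was 1.15-fold and the prostaglandin transporter gene SLCO2A1 1.11-fold higher; the ratios of SLCO2A1 were above 0 with grade 3 in Cy5 and below 0 with grade 1 in Cy5. Both calls were lost without a dye term, with backgrounds as measured and without replicate 2 with grade 1 in Cy5, and that of SLCO2A1 also without either replicate 1. Among toll-like receptor and NF-kB genes 5 of 7 were lower and TLR2 was higher. TLR1 fell by 0.63 and TLR4, the endotoxin receptor gene, by 0.54 on the log2 scale, TLR9 fell by 0.27 (not called with backgrounds as measured), and TLR2 was 1.28-fold higher, though not called without a dye term or with backgrounds as measured, and below 0 on replicate 2 with grade 3 in Cy5. TLR5 had 0.02 ± 0.05 (limma adjusted p = 0.761).

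Targets induced in acute inflammation were mostly lower, 14 of 17, with a median of -0.89. Among all named genes 46.1% were lower, with a median of -0.09. The neutrophil chemokine gene CXCL8 was 31-fold lower (-4.95 ± 0.06 in log2, SE, adjusted p by limma 3.9e-11) and the matrix protease gene MMP3 5.51-fold (-2.46 ± 0.06, 1.16e-09). With backgrounds as measured MMP3 had -1.50 and was not called (adjusted p by limma 0.0711). At the other end of the called fallers, CCL3 had -0.22 and the growth factor gene CSF2 -0.36. CSF2 was well above background in grade 3 on 3 of 4 arrays, so it passed the filter through grade 1. Its other probe had -0.12. The endothelial adhesion gene SELE was 1.26-fold higher by its brightest probe, while its other probe had -0.001; its call was lost without a dye term and with backgrounds as measured, and its ratio was -0.12 on replicate 2 with grade 1 in Cy5. ICAM1 was not called (0.03 ± 0.06, limma adjusted p = 0.749).

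**Figure D4:**
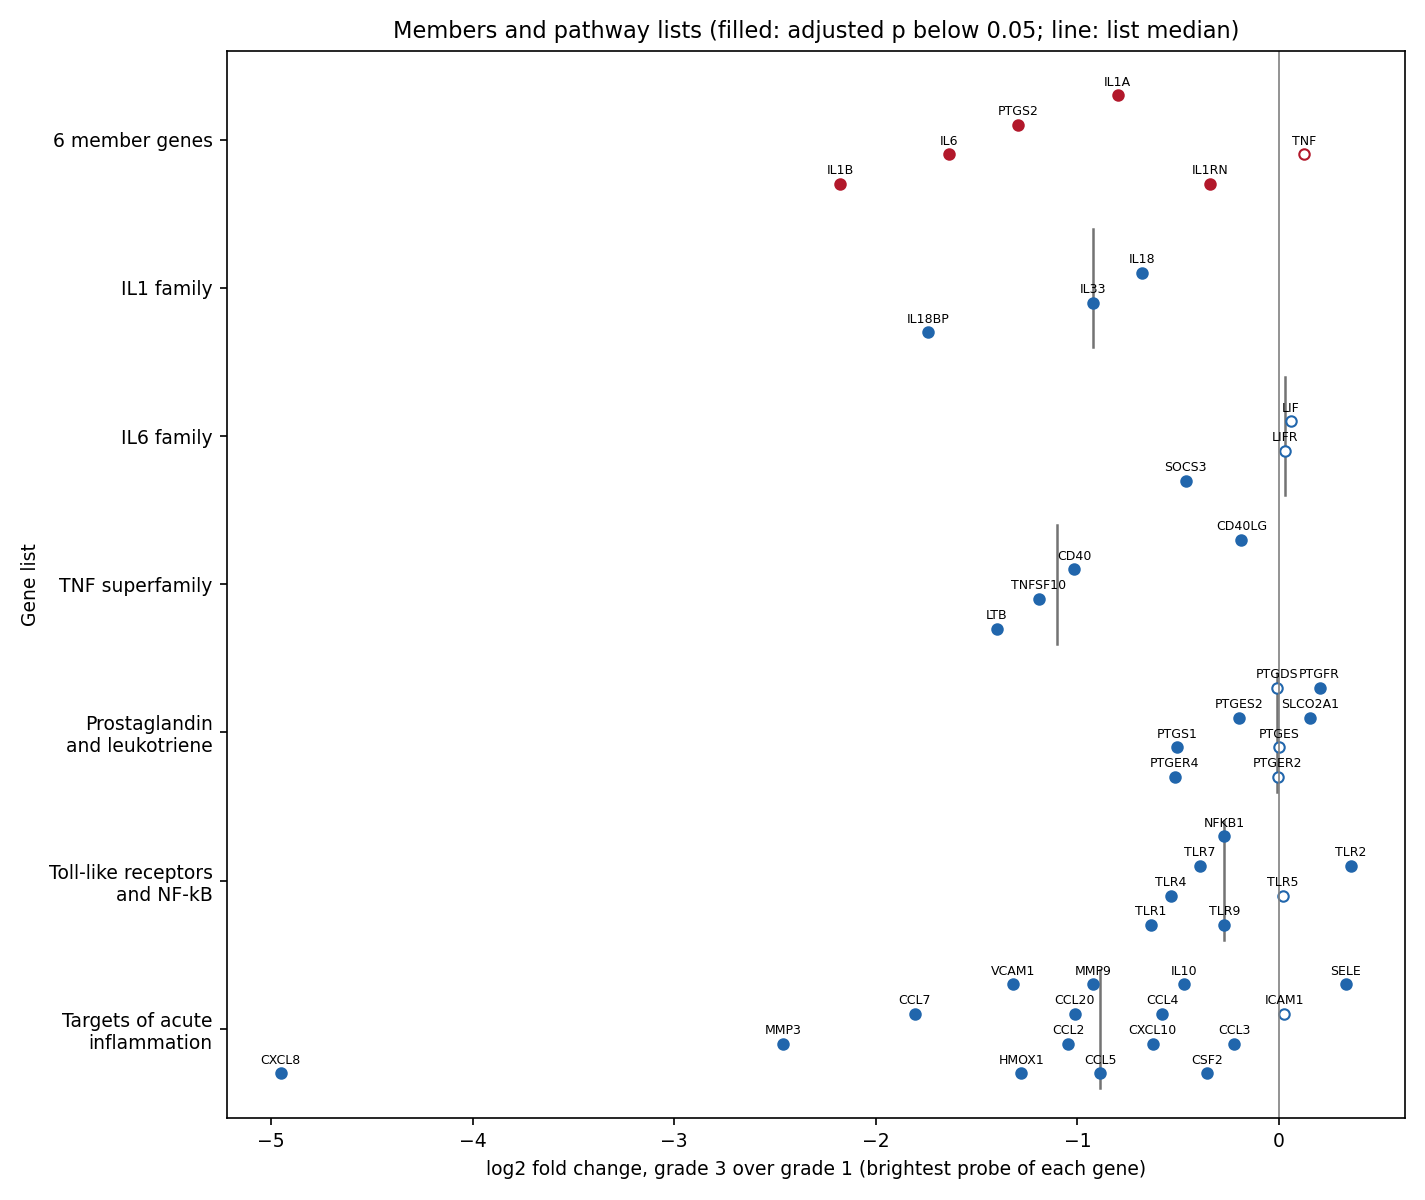
Log2 fold change of grade 3 over grade 1 (horizontal axis) for the members and for each measured gene of the 6 pathway lists, by its brightest probe, filled where the adjusted p was below 0.05, with a line at each list's median. Of the 42 list genes 30 are called lower; 1 of the genes called higher is not drawn. The prostaglandin genes centre on 0, where all named genes had a median of -0.09, while PTGS2 lies at -1.30.

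Markers of blood cells were lower in grade 3 beside these genes. Among all 925 named genes 46.1% were lower, so single calls are read with their sizes. Of the monocyte and macrophage markers 3 of 10 were measured, and FCGR1A, CD163 and CD86 were 2.59-fold, 2.21-fold and 1.92-fold lower; their summed level was 12037 to 13309 intensity units in grade 3, against 25957 to 28057 in grade 1. Of the neutrophil markers 4 of 9 were measured and all were lower, CAMP 3.08-fold, S100A8 2.94-fold, CXCR2 1.22-fold and ELANE 1.19-fold. Their summed level was 14680 to 16752 in grade 3 and 44682 to 48110 in grade 1, nearly all of it S100A8. Mean log2 levels in grades 3 and 1 were 13.88 and 15.44 for S100A8, against 8.59 and 10.21 for CAMP. The 5 measured of 9 T and NK cell markers were lower, from KLRD1 (2.65-fold) and CTLA4 (1.70-fold) to CD8A (1.28-fold) and CD4 (1.13-fold), with sums of 909 to 987 in grade 3 and 1385 to 1546 in grade 1. Both measured B cell markers of 4 listed were lower, MS4A1 2.92-fold and CD38 1.39-fold. Their sums of 1577 to 1828 in grade 3 and 2357 to 2705 in grade 1 were mostly CD38. Its mean log2 levels in grades 3 and 1 were 10.58 and 11.05, against 6.89 and 8.44 for MS4A1. Every one of these markers was well above background on all arrays in both grades. With backgrounds as measured CXCR2, ELANE, KLRD1, CTLA4, CD8A, CD4 and MS4A1 were not called. With spike-in scaling CXCR2, ELANE, CD8A, CD4 and CD38 turned to above 0. The part of these cells in the members' lower levels was not tested.

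Most stromal markers were also lower, as were 46.1% of all named genes. Of 6 fibroblast markers 4 were measured: COL1A1 was 2.24-fold lower by its brightest probe, COL1A2 1.46-fold and DCN 1.27-fold, and PDGFRB had 0.08 ± 0.05 (limma adjusted p = 0.163), with a summed level of 305993 to 398429 in grade 3 and 477091 to 547293 in grade 1. The 4 COL1A1 probes ran from -1.16 to -0.40 in log2. Both collagen genes differed by dye orientation: COL1A1 had -1.47 and -1.80 with grade 3 in Cy5 and -0.65 and -0.73 with grade 1 in Cy5, and COL1A2 had -0.06 and 0.32 with grade 3 in Cy5 and -1.28 and -1.17 with grade 1 in Cy5, its call being lost without a dye term. The endothelial genes KDR and VWF, 2 of 4 listed, were 1.53-fold and 1.23-fold lower, with sums of 34631 to 42430 in grade 3 and 43843 to 52485 in grade 1. VWF made up most of these sums (mean log2 level 15.16 in grade 3 and 15.46 in grade 1, against 11.26 and 11.87 for KDR). With spike-in scaling COL1A2 (0.12), DCN (0.32), KDR (0.054) and VWF (0.37) turned to above 0 in log2.

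The named genes whose ratios lay nearest to a member's were found by the root mean square difference of log2 ratios over the 4 arrays, among 918 named genes. For the fitted ratios of IL1B these were ADGRE3, a leukocyte adhesion receptor gene (0.19), MMP3 (0.32) and the peptide transporter gene SLC15A1 (0.47). For IL6 probe 1 they were the phosphatase gene ALPL (0.10), CAMP (0.10) and GAD1, which makes the transmitter GABA (0.14). PTGS2 lay nearest to KLRD1 (0.17), PCK1, a gluconeogenic enzyme gene (0.18), and ADGRE2 (0.23). PLN (0.09) and SVIP (0.10) were among the 3 genes nearest to IL1A. CYCS and RTBDN were each within 0.07 of IL1RN, and ZNF252, LHB and MC4R within 0.08 of TNF probe 1. With the mean of each gene's tested probes as its value, all 3 neighbours of IL6 changed. Some of those of IL1A, IL1RN and PTGS2 changed too, while those of IL1B and TNF stayed the same.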

How the data were processed

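All 4 arrays, each with both grades, were scanned and extracted using Agilent Feature Extraction 10.7.3.1, which the submitters' processing notes name. Median spot signals and local backgrounds are linear intensity readings, per the file headers; the processed signals, also deposited, are intensity values after the software's background and dye correction. The deposited LogRatio column is the log10 of Cy5 over Cy3, and the deposited value table holds it turned to grade 3 over grade 1 (largest difference 4.99e-06, column medians 0). Directions come from the dyes in the labels.

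Members, gene lists, tests and the background rule were chosen with earlier results of these data known. In R 4.3.3 with limma 3.58.1, local backgrounds marked as outliers (151 to 2352 a channel) were replaced by the channel median, normexp was run with an offset of 50, and loess gave control spots a weight of 0. Between 11 and 39 marked spots an array were left out, and none was saturated. Probes entered the fit where a grade was well above background on every array, 35411 of 43603. Grade and dye were terms of the limma fit (2 residual and 7.50 prior degrees of freedom), which was tested on simulated data; tests were two-sided, adjusted by Benjamini-Hochberg across these probes, and called at 0.05. Levels are single-channel values after loess and Aquantile. Channel medians were 215 to 402 units over backgrounds of 28 to 41, with 80.6% to 84.5% of probes well above background; 4 arrays limit the precision.

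Unversioned RefSeq accessions in a table of UU_Cfam_GSD_1.0 named 1648 probes; that assembly is not the array design's, so no coordinates are given. A gene's brightest tested probe stood for it in lists. The text names all member probes, in each list the 2 highest and 2 lowest called genes and those across 0 from its median (where 3 or fewer), and the 3 genes nearest to each member, apart from some that are not reported here; LIF, LIFR, PTGES, CCL3 and CSF2 were named after their values were seen. Alternatives were other backgrounds, offset, normalization, scaling, dye term, filters, replicate block and leaving out each array.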

Additional observations from a re-analysis of the deposited data

Results flagged for a closer look

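Among 72 probes, those of the members and of the listed genes, 1 had an array far from the other 3 by Dixon's criterion for 4 values, which marks about 1 in 20 by chance. For CTLA4, a checkpoint receptor gene of T cells, the log2 ratio was -0.57 on replicate 2 with grade 3 in Cy5, against -0.84 on replicate 1 of that orientation and -0.84 and -0.82 on the arrays with grade 1 in Cy5. The gap was 0.907 of the range. None of the 8 member probes had such an array.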

How the results depend on the processing

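With local backgrounds as measured the log2 fold changes no longer called were -0.46 for IL1A, -1.19 for IL1B, -0.23 for IL1RN, -0.95 for IL6 probe 1 and -0.54 for IL6 probe 2, and 4418 probes were lower and 2328 higher, against 10800 and 11029; pathway genes called higher numbered 1, against 5. Leaving out each array as well, a choice made after seeing the data, gave the following. Without replicate 2 with grade 3 in Cy5, 7589 probes were lower and 7663 higher and all of these members were called. Without replicate 1 with grade 1 in Cy5, 2071 were lower and 1117 higher, 18 pathway genes were lower, and IL1A (-0.62), IL1RN (-0.31) and IL6 probe 2 (-0.64) were not called. Without replicate 1 with grade 3 in Cy5, 5187 were lower and 2525 higher, and IL1A (-0.29), IL1B (-0.69), IL1RN (-0.15), IL6 probe 1 (-0.58), IL6 probe 2 (-0.22) and PTGS2 (-0.68) were not called; SLCO2A1 (-0.057), ICAM1 (-0.14) and MC4R (-0.0040) were below 0. Without replicate 2 with grade 1 in Cy5, 1237 were lower and 632 higher, 10 pathway genes were lower, and IL1A (-0.30), IL1B (-0.82), IL1RN (-0.16), IL6 probe 1 (-0.70), IL6 probe 2 (-0.44) and PTGS2 (-0.73) were not called; TLR5 (-0.0021) and ICAM1 (-0.055) were below 0. Apart from the first of these fits, which called 5, each called 1 pathway gene higher. Spike-in scaling moved all probes of an array together, and upward because the measured spike-in log2 ratios averaged -0.67. It gave -0.13 for IL1A (not called), 0.32 for IL1RN and 0.79 for TNF probe 1 (called). With it 917 probes were lower and 32259 higher, and 14 pathway genes were lower and 20 higher. It put above 0 the log2 fold changes of SOCS3 (0.20), CD40LG (0.48), PTGER4 (0.15), PTGS1 (0.16), TLR1 (0.033), TLR4 (0.13), TLR9 (0.40), CXCR2 (0.38), ELANE (0.42), CD8A (0.31), CD4 (0.50), CD38 (0.19), COL1A2 (0.12), DCN (0.32), KDR (0.054), VWF (0.37), CYCS (0.36) and RTBDN (0.32). Median centring called TNF probe 1 (0.14), gave 8835 probes lower and 15630 higher and 9 pathway genes higher, and put TLR5 at -0.17 and MC4R at -0.048. Without a dye term 1 pathway gene was higher. Genes not called also crossed 0: TLR5 at -0.045 with processed signals and the value table and -0.00165 without replicate 2 with grade 3 in Cy5 and with backgrounds as measured, and ICAM1 at -0.012 with backgrounds as measured and, leaving out each array in turn, from -0.063 (without replicate 1 with grade 3 in Cy5) to 0.11, and at -0.015 without replicate 2 with grade 1 in Cy5.

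Leaving out each array in turn, the log2 fold changes ran from -0.85 to -0.75 for IL1A, -2.22 to -2.13 for IL1B, -0.39 to -0.30 for IL1RN, -1.67 to -1.61 for IL6 probe 1, -1.01 to -0.92 for IL6 probe 2 and -1.35 to -1.24 for PTGS2, all called, and 0.066 to 0.18 for TNF probe 1, called at 0.18; 28 to 31 pathway genes were lower and 3 to 6 higher, with 3 without replicate 2 with grade 1 in Cy5. With the replicate number as a block the members' values and calls were the same, with 10640 probes lower and 10922 higher and 30 and 5 pathway genes; same-numbered arrays shared no deviation (r = -0.09 over 35376 probes), so the number is not taken as a pairing. Signal over background limits IL1B in grade 3 and TNF probe 2. Causes other than those stated were not tested.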
